A study of Mus musculus with 6 samples.

Results

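The mitochondrial respiratory chain genes were examined in macrophages grown from mouse bone marrow. The members were all genes whose symbol on the array platform begins with Nduf followed by a, b, c, f, s or v, with Uqcr, with Cox and a digit of 4 to 8, or with Atp5, together with Sdha, Sdhb, Sdhc and Sdhd, provided that a probe was detected (detection p under 0.01) on at least 1 of the 6 arrays. Of 85 symbols that matched, 76 were detected, out of 7153 detected genes and 16593 named genes on the array. Marrow of female 129/BL6 mice was differentiated for 5 days with supernatant of L929, a fibroblast line that secretes the macrophage growth factor M-CSF. The 6 groups were Irak2-knockout macrophages with R848, with CpG B and untreated, and wild-type macrophages with R848, with CpG B and untreated. Each agent was given at 1 µg/ml for 2 h, and each group was measured on 1 array, so no group had a replicate. IRAK2 is a kinase of the Toll-like receptor pathway, R848 (resiquimod) is a small-molecule agonist of TLR7, and CpG B is a DNA oligonucleotide that activates TLR9. The sources used here do not say which part of Irak2 was deleted or how many mice stand behind each array.

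The respiratory chain passes electrons through complexes I to IV of the inner mitochondrial membrane, and complex V (ATP synthase) uses the proton gradient that they build. Most subunits are encoded in the nucleus and measured here, while a core set is encoded by mitochondrial DNA. Activated macrophages are known for a shift towards glycolysis, and complex I and complex II are known as sources of reactive oxygen species in them. RNA levels, as measured here, do not give protein levels or respiration.

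Complex I (NADH dehydrogenase) was covered by 32 detected genes of 33 that matched, besides Ndufs5-ps, which RefSeq annotates as a transcribed pseudogene. Complex II (succinate dehydrogenase) had 3 of 3, complex III (cytochrome bc1) 6 of 8, complex IV (cytochrome c oxidase, with Ndufa4 counted there) 14 of 19 and complex V 15 of 16, and all 5 of the Ndufaf genes, which encode assembly factors of complex I and are not subunits, were detected. Of the 76 members, 74 were detected on all 6 arrays. Ndufaf7 was detected on 3 arrays and Ndufb11 on 2, so both lie just inside the detection threshold. The matched genes outside it were Atp5k, Cox4i2, Cox6b2, Cox7b2, Cox8b, Cox8c, Ndufs1, Uqcrfs1 and Uqcrq, whose lowest detection p ranged from 0.0689 (Cox6b2) to 0.708 (Cox7b2). These include Ndufs1, the largest complex I core subunit, and Uqcrfs1, the Rieske iron-sulfur protein, for which a probe at background gives no information on the gene. Sdha was not named in the platform annotation, and none of the mitochondrially encoded subunits was found on the array by symbol.

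On the 6 arrays, 8968 to 9718 of 25697 probes were detected. The Irak2 probes were detected in every library, the first at 641, 556 and 339 intensity units before normalization in Irak2-knockout cells with R848, with CpG B and untreated, against 2594, 2117 and 342 in wild-type cells, and the second at 835, 622 and 378 against 3695, 2618 and 534. Both probes were thus lower in stimulated knockout than in stimulated wild-type cells and close to each other in untreated cells for the first probe. Whether the probes lie within the deleted part is not given, so they do not settle the genotype. All 6 macrophage markers on the array were detected (Mertk on 2 arrays), as were 7 of 7 neutrophil, 4 of 8 dendritic cell and 1 of 3 B cell markers, and none of the T cell (4), fibroblast (4) or erythroid (2) markers was.

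The R848 question, what 2 h of TLR7 stimulation did to these genes, was addressed with an additive limma model of genotype and agent over the 6 arrays. Values are normalized log2 intensities, a difference of 1 being a 2-fold change, and a gene is called at a Benjamini-Hochberg adjusted p under 0.05 over the 7153 detected genes. No respiratory chain gene rose and 2 fell, Ndufs7 and Ndufaf7, whereas 12.1% of all detected genes rose and 17.3% fell (29.4% in either direction). Ndufaf7 was detected on neither R848 array and entered the tested genes through arrays on which it was higher, so its direction is partly set by the detection filter. Among the 74 members detected on all 6 arrays, Ndufs7 alone was called. At an unadjusted limma p under 0.05 there were 6 of 76 members, all lower with R848. At the same cut 1784 of all 7153 detected genes were lower and 1257 higher, a larger share than among the members. With 2 residual degrees of freedom and no replicates, the spread in this test comes from how differently the genotypes responded and may be in part technical.

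Most members lay slightly lower with R848 than in untreated cells, but this small displacement changes side with the way the arrays are scaled. In the quantile-normalized values 69 of 76 members (90.8%) were below 0, with a median difference of -0.15, and 57% of all detected genes were below 0, with a median of -0.08. Scaling each array to the median of the probes detected on every array instead left 29 members below 0 and 47 above, with a median of 0.04 (0.01 for all genes). Scaling to the median of all probes gave 69 below 0 and a median of -0.14, against -0.17 for all genes, so that the members stood above the typical gene in both median scalings and below it with quantile normalization. No direction is therefore given for the respiratory chain as a whole.

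The differences themselves were small. The median absolute R848 difference was 0.15 for the members and 0.30 for all detected genes on the log2 scale, and it was 0.11 and 0.29 with scaling to the median of detected probes. In the quantile-normalized values the 95% confidence interval lay within 2-fold in either direction for 75 of 76 members and within 1.5-fold for 62. Many members are bright probes. Among 1773 other genes with a mean log2 level of at least 10.64, the lower quartile of the members, 25.3% were called and the median absolute difference was 0.25, while of the 57 members in that range 1 was called, with a median absolute difference of 0.15. This is a description of genes chosen by name and carries no test.

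**Figure D1:**
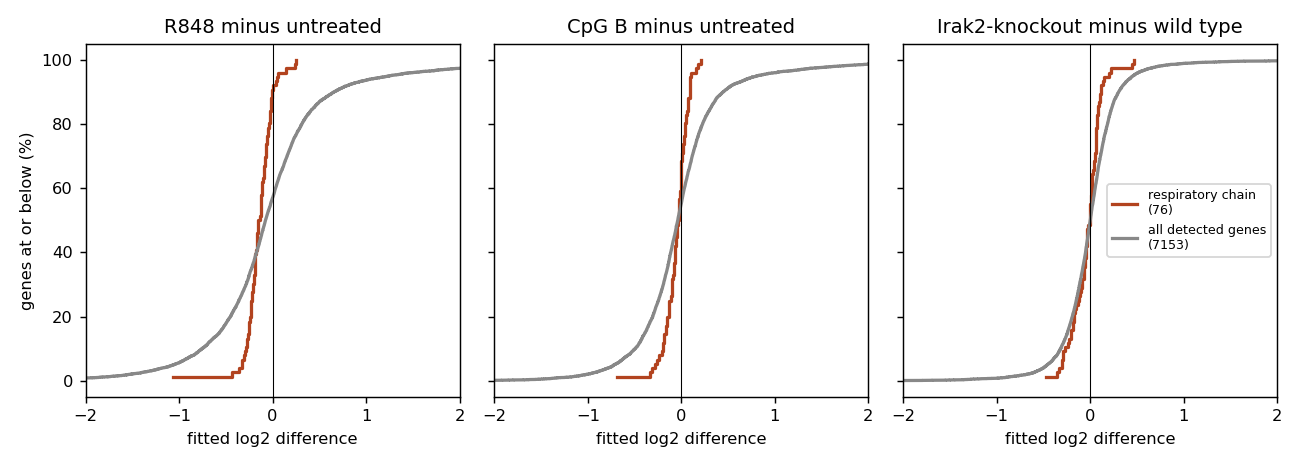
Cumulative share of genes (vertical axis, percent) at or below each fitted log2 difference (horizontal axis) for R848 minus untreated, CpG B minus untreated and Irak2-knockout minus wild type, for 76 respiratory chain genes and 7153 detected genes; the axis ends at 4-fold, and some of all genes lie beyond it. The curve of the respiratory chain genes is steeper in all 3 panels, with median absolute differences of 0.15 against 0.30 for all genes (R848), 0.07 against 0.21 (CpG B) and 0.07 against 0.15 (genotype).

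Ndufs7 encodes a core subunit of complex I that carries the iron-sulfur cluster next to the quinone site. It stood at 11.82 with R848, 11.95 with CpG B and 12.21 untreated in Irak2-knockout cells, and at 11.66 with R848, 12 with CpG B and 12.14 untreated in wild-type cells. In each genotype the R848 array was the lowest and the untreated array the highest, and the R848 and untreated values did not overlap. The fitted difference was -0.44 (SE 0.124, 95% interval -0.74 to -0.13, limma adjusted p = 0.0473). The call sits at the threshold: it was lost whichever of the 6 arrays was left out (adjusted p 0.0627 to 0.231), with median scaling (-0.23, adjusted p = 0.212) and without the detection filter (adjusted p = 0.0516).

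Ndufaf7 encodes a methyltransferase that acts on a core subunit while complex I is assembled. Its probe read 6.07 with R848, 6.16 with CpG B and 6.92 untreated in Irak2-knockout cells, and 6.02 with R848, 6.68 with CpG B and 7.31 untreated in wild-type cells. It was not above background on the R848 array of either genotype, nor with CpG B in knockout cells. Only a bound can therefore be given: it was at least 1.28-fold lower with R848 than untreated (measured means of 6.05 and 7.11). It entered the tested genes through arrays on which it was higher, so no test of its fall is given although it is 1 of the 2 members counted as fallen. The other probes of Ndufaf7 were never detected, and the call was lost when the untreated array of either genotype was left out.

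The promoters of the called members are shown to set them beside a member whose level hardly moved and beside AA467197, a gene described further on that rose with R848. The windows run from 250 bases before to 50 bases after the annotated start, in RefSeq's build GRCm38.p6, written 5′ to 3′ on the gene's strand. Capitals mark matches on either strand to the core motifs of NRF1 (GCGCA, any base, GCGC), of ETS factors (CCGGAAG) and of YY1 (AAGATGGC), which are known regulators of respiratory chain genes, and to the TATA box (TATAAA). Ndufs7 lies at chr10:80249199-80249498 on the plus strand, Ndufaf7 at chr17:78936885-78937184 on the plus strand, Cox6a1 at chr5:115348909-115349208 on the minus strand and AA467197 at chr2:122637637-122637936 on the plus strand.
Ndufs7: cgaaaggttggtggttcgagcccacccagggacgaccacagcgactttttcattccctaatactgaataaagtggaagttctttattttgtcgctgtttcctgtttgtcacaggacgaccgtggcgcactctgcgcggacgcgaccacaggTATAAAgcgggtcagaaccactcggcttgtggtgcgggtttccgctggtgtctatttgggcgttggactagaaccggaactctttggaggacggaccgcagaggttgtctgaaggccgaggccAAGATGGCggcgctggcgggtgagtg
Ndufaf7: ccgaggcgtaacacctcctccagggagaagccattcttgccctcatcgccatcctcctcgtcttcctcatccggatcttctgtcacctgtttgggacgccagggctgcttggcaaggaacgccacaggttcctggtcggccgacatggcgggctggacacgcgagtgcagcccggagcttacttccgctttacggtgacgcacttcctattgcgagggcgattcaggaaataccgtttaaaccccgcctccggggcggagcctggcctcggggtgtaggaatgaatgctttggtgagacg
Cox6a1: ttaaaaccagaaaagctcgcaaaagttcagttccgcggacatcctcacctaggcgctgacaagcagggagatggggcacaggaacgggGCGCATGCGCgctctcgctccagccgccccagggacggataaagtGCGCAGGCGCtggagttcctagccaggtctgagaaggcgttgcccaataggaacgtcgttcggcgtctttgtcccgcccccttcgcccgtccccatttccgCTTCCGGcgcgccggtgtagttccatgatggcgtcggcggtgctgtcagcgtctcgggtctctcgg
AA467197: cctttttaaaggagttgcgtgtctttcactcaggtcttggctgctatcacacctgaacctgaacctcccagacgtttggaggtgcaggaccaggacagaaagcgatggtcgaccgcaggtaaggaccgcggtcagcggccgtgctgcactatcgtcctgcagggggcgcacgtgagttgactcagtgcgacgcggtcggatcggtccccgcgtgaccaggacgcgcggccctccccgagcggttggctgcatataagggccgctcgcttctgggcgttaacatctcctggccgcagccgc

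The Ndufs7 window held 1 YY1 core and 1 TATA box. The Cox6a1 window held 2 NRF1 cores and 1 ETS core, while the Ndufaf7 and AA467197 windows held none of the 4 motifs. Of the 76 members, 65 had a window in the RefSeq table. The NRF1 core was found in 14 of these (21.5%), against 11.9% of 5916 windows of detected genes and 4.78% of all 27025 windows. The YY1 core was found in 9 (13.8%), against 5.51% and 2.88%, and the ETS core in 15 (23.1%), against 20.6% and 9.12%. The TATA box was found in 5 (7.69%), against 7.2% and 14.2%. A match is a run of letters and not a measured binding site, and its absence from a window says nothing about a factor.

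Within complex I, 31 of 32 subunit genes lay below 0 with R848, with a median of -0.17 in the quantile-normalized values, against 15 of 32 and a median of 0.0077 with scaling to the median of detected probes. Scaling to the median of all probes left 30 of 32 below 0, with a median of -0.18. Beside Ndufs7, the subunits with an unadjusted limma p under 0.05 were Ndufs3, a core subunit of the peripheral arm, Ndufv2, an iron-sulfur subunit of the NADH-oxidizing module, and Ndufa6, an accessory subunit. Ndufs3 read 11.03 with R848, 11.24 with CpG B and 11.33 untreated in Irak2-knockout cells, and 11.03, 11.27 and 11.37 in wild-type cells in the same order, so that both R848 arrays lay below all others. Its fitted difference was -0.32 (SE 0.116, limma adjusted p = 0.0886), and those of Ndufv2 and Ndufa6 were -0.32 (adjusted p = 0.102) and -0.29 (adjusted p = 0.117). None of these passed the threshold, though Ndufv2 did when the moderation allowed for an intensity trend (adjusted p = 0.0482) and Ndufs3 did with a second, recovered untreated array per genotype (adjusted p = 0.0496).

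Complex II, which also belongs to the citric acid cycle, had 3 measured genes, and none was called. All 3 lay below 0 with R848 in the quantile-normalized values (median -0.26), with scaling to the median of detected probes (-0.11) and to that of all probes (-0.29). Sdhd, a membrane anchor, read 10.43 with R848, 10.50 with CpG B and 10.84 untreated in Irak2-knockout cells, against 10.63, 10.72 and 10.93 in wild-type cells. The R848 and untreated arrays did not overlap, and the difference was -0.36 (SE 0.119, limma adjusted p = 0.0748, and 0.0476 with an intensity trend). Sdhb, the iron-sulfur subunit, was at 11.09 with R848, 11.42 with CpG B and 11.37 untreated in knockout cells, and at 11.15, 11.43 and 11.39 in wild-type cells. Its R848 arrays were the lowest while its CpG B arrays lay beside the untreated ones, and the R848 difference was -0.26 (adjusted p = 0.145). Another probe of Sdhb, detected on all arrays, gave -0.06. Sdhc, the other membrane anchor, had a difference of -0.19 (adjusted p = 0.345).

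No gene of complex III, IV or V was called in the R848 fit. Among the genes under the naming rule, all 6 of complex III, 11 of 14 of complex IV and 12 of 15 of complex V lay below 0. Their medians were -0.16, -0.11 and -0.12, and 57% of all detected genes lay below 0. These directions turned with scaling to the median of detected probes, which left 1, 4 and 2 of them below 0 with medians of 0.06, 0.11 and 0.06. They stayed with scaling to the median of all probes, which left 6, 12 and 12 of them below 0. Uqcr10, a small subunit of complex III, was at 13.24 with R848, 13.47 with CpG B and 13.47 untreated in Irak2-knockout cells, and at 13.25, 13.45 and 13.49 in wild-type cells. The R848 arrays were the lowest in both genotypes, with a difference of -0.23 (limma adjusted p = 0.181) that came to 0.0044 with median scaling. Atp5mpl, a small membrane subunit of complex V, had a difference of -0.29 (adjusted p = 0.138, and 0.0472 with an intensity trend).

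**Figure D2:**
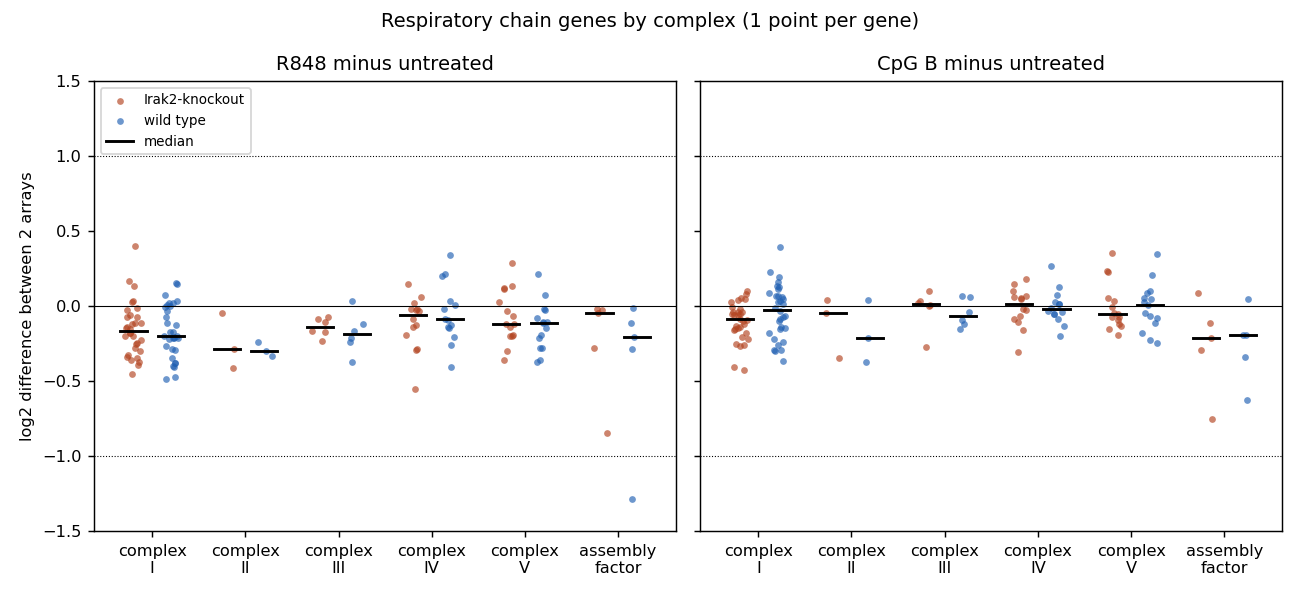
Log2 difference between 2 arrays (vertical axis) for each respiratory chain gene, by complex (horizontal axis), for R848 minus untreated and CpG B minus untreated, with Irak2-knockout points left of wild-type points in each complex and bars at the median; dotted lines mark 2-fold. All points lie between the dotted lines but for Ndufaf7 with R848 in wild-type cells, drawn at its measured -1.28 although its R848 value was not above background.

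Several complex IV subunits exist as pairs of isoforms, a widely expressed form and a form known from particular tissues. In these macrophages the widely expressed forms described here were detected on all 6 arrays. Cox4i1 read 13.64 with R848, 13.79 with CpG B and 13.73 untreated in Irak2-knockout cells, and 13.60 with R848, 13.85 with CpG B and 13.72 untreated in wild-type cells. Cox6a1 read 12.95 with R848, 13.03 with CpG B and 12.97 untreated in Irak2-knockout cells, and 12.90, 12.93 and 12.92 in wild-type cells in the same order. The Cox4i1 values with R848 lay just below the untreated ones, those of Cox6a1 overlapped, and neither gene was called. Cox8a read 13.10 with R848, 13.11 with CpG B and 13.13 untreated in Irak2-knockout cells, and 12.91, 13.02 and 13.05 in wild-type cells. Cox6b1 read 12.95 with R848, 13.10 with CpG B and 12.92 untreated in Irak2-knockout cells, and 13.06, 13.12 and 13.32 in wild-type cells. The highest Cox6b1 value was that of untreated wild-type cells, and a further probe of the gene put the genotypes 0.02 apart untreated (-0.02), against -0.40 for the first. Cox4i2, a lung form, Cox6b2, a testis form, and Cox8b, a muscle form, were not detected.

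Cox6a2 and Cox7a1 are the heart and muscle forms, and both were detected on all arrays although dimly. Cox6a2 read 7.47 with R848, 7.39 with CpG B and 7.32 untreated in Irak2-knockout cells, and 7.98 with R848, 7.56 with CpG B and 7.64 untreated in wild-type cells. Cox7a1 read 7.92 with R848, 8.16 with CpG B and 8.11 untreated in Irak2-knockout cells, and 8.25, 8.35 and 8.39 in wild-type cells. In both genes each knockout array lay below the wild-type array of the same condition, a difference that no test called. Cox7a2, the widely expressed partner of Cox7a1, read 9.98 with R848, 10.07 with CpG B and 10.10 untreated in Irak2-knockout cells, and 10.33, 10.15 and 10.12 in wild-type cells. Cox7a2l, a related protein that joins complexes III and IV into supercomplexes, read 11.09 with R848, 11.02 with CpG B and 11.11 untreated in Irak2-knockout cells, and 11.03, 11.30 and 11.44 in wild-type cells. Neither was called, and the R848 and untreated values of Cox7a2 overlapped.

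The c subunit, which forms the rotor ring of complex V, is encoded by a set of 3 genes whose mature proteins are alike. Atp5g1 read 12.43 with R848, 12.41 with CpG B and 12.41 untreated in Irak2-knockout cells, and 12.29 with R848, 12.39 with CpG B and 12.57 untreated in wild-type cells. Atp5g2 read 11.20 with R848, 11.14 with CpG B and 11.23 untreated in Irak2-knockout cells, and 11, 11.36 and 11.15 in wild-type cells. Atp5g3 read 14.24 with R848, 14.36 with CpG B and 14.31 untreated in Irak2-knockout cells, and 14.42, 14.53 and 14.45 in wild-type cells. None of the 3 was called in any fit, and their R848 differences were -0.13, -0.09 and -0.05.

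Ndufa4 was long listed with complex I and is now known as a subunit of complex IV. AA467197 (synonym Nmes1 in RefSeq) encodes a related protein that is known to take the place of NDUFA4 in complex IV in inflammation. It is not a member by the naming rule. Ndufa4 read 13.07 with R848, 13.10 with CpG B and 13.21 untreated in Irak2-knockout cells, and 13.16 with R848, 13.21 with CpG B and 13.25 untreated in wild-type cells. Its R848 arrays lay just below its untreated arrays, with a difference of -0.12 (SE 0.116, 95% interval -0.40 to 0.17, limma adjusted p = 0.488) that turned to 0.11 with median scaling. AA467197 read 13.09 with R848, 12.86 with CpG B and 11.92 untreated in Irak2-knockout cells, and 13.29 with R848, 11.75 with CpG B and 11.11 untreated in wild-type cells. Both R848 arrays lay above both untreated arrays, and AA467197 rose by 1.67 (SE 0.311, limma adjusted p = 0.0149). With CpG B the difference was 0.79 (adjusted p = 0.174), and on the CpG B arrays knockout cells stood 1.11 above wild-type cells. The R848 call was lost without the untreated array of either genotype (adjusted p = 0.159 without the wild-type and 0.110 without the knockout array).

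**Figure D3:**
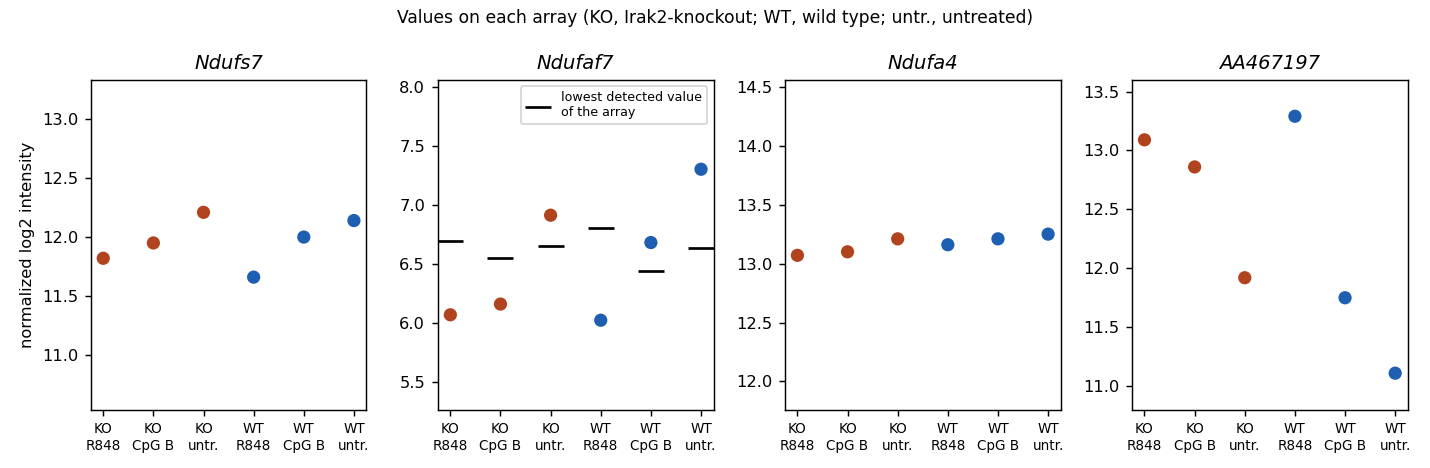
Normalized log2 intensity (vertical axis) on each of the 6 arrays (horizontal axis) for Ndufs7, Ndufaf7, Ndufa4 and AA467197, with Irak2-knockout arrays left of wild-type arrays; the short bars in the Ndufaf7 panel are the lowest value of a detected probe on each array. Every panel spans the same range of log2 units, in which Ndufa4 lies between 13.07 and 13.25 and AA467197 between 11.11 and 13.29.

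The R848 differences were next read within each genotype, where 2 arrays are compared and no test is possible. In Irak2-knockout cells 63 of 76 members lay lower with R848, with a median of -0.12, and in wild-type cells 60 did, with a median of -0.16. With median scaling these counts became 39 and 24 and the medians -0.0020 and 0.09. No member was 2-fold or more higher in either genotype, against 5.77% of genes in knockout and 7.69% in wild-type cells. No member above background on both arrays was 2-fold or more lower, against 4.68% of genes lower in knockout and 7.88% in wild-type cells. Ndufaf7 measured -1.28 in wild-type cells, but its R848 value was not above background, so 2-fold is not established. Across genes, the R848 differences of the 2 genotypes correlated with r = 0.30 over the 76 members and r = 0.90 over 7153 detected genes. By complex, r was -0.09 for complex I, -0.52 for II (3 genes), -0.27 for III, -0.10 for IV and 0.34 for V. It was 0.96 over the 5 assembly factors. These and the 76 members include Ndufaf7, the lowest member in both genotypes (-0.84 in knockout and -1.28 in wild-type cells), with R848 values not above background. Complex I includes Ndufb11 (0.40 in knockout and -0.47 in wild-type cells), which was not detected on either untreated array or with R848 in wild-type cells. Values of r without these genes are not given. Genes are not independent replicates, and the members' values spread little around their median. The authors' processed values allow a second untreated array per genotype to be recovered, which puts a size on this. The members differed between untreated arrays of 1 genotype with an SD of 0.178 in knockout and 0.178 in wild-type cells, and none by 2-fold.

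CpG B stimulates TLR9, which shares its adaptors with TLR7. In the limma fit no respiratory chain gene rose or fell, beside 4.7% of all detected genes that rose and 3.98% that fell (8.68% in either direction). At an unadjusted p under 0.05 there were 2 members, Ndufaf7 and Ndufaf5, both lower, beside 1122 lower and 857 higher of all 7153 detected genes. The median was -0.03 for the members, with 51 of 76 below 0, and -0.04 for all genes, and the 95% interval lay within 2-fold for 75 members and within 1.5-fold for 72. With median scaling the members' median was 0.02 and 34 lay below 0.

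The assembly factors gave the members with the smallest p in the CpG B fit. Ndufaf7 had a measured difference of -0.69, with its knockout CpG B array below background as described above. It was detected on both untreated arrays and on the wild-type CpG B array alone, so its direction is partly set by the detection filter. No test of its fall is therefore given, although it is counted above among the members with an unadjusted p under 0.05. It was also called under some alternative settings. These calls rest on the same filter and in part on the knockout value that was not above background. Ndufaf5, an enzyme that hydroxylates the NDUFS7 protein during assembly, read 8.24 with R848, 8.22 with CpG B and 8.51 untreated in Irak2-knockout cells, and 8.59 with R848, 8.46 with CpG B and 8.79 untreated in wild-type cells. The CpG B array was the lowest in each genotype and the CpG B and untreated values did not overlap, while the genotypes did, and the difference was -0.31 (SE 0.118, adjusted p = 0.159). The other Ndufaf5 probe, also detected on all arrays, gave -0.11 in knockout and -0.06 in wild-type cells. Ndufaf1, Ndufaf3 and Ndufaf4, which act at other steps of complex I assembly, had CpG B differences of -0.20, -0.15 and 0.07, none of them called.

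Within each genotype, 50 of 76 members lay lower with CpG B in Irak2-knockout cells, with a median of -0.05, and 42 did in wild-type cells, with a median of -0.04. With median scaling these counts became 25 and 46 and the medians 0.05 and -0.04. No member reached 2-fold in either direction, against 4.63% of genes higher and 3.37% lower in knockout cells and 3.64% higher and 1.6% lower in wild-type cells. The R848 and CpG B differences share the untreated arrays, so the agents were also set against each other directly, as a contrast in the same 6-array fit whose estimate comes from the stimulated arrays. In that contrast 0% of the 7153 genes were called in either direction, and at an unadjusted p under 0.05 there were 433 higher and 510 lower with R848. No member was called, and Sdhb was the single member with an unadjusted p under 0.05 (-0.31, SE 0.116, adjusted p = 0.369). Another Sdhb probe, detected on all arrays, gave -0.07 in knockout and -0.15 in wild-type cells. Of the members, 60 of 76 were lower with R848 than with CpG B, with a median of -0.11, against -0.04 for all genes. With median scaling 30 were lower and the median was 0.03.

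**Figure D4:**
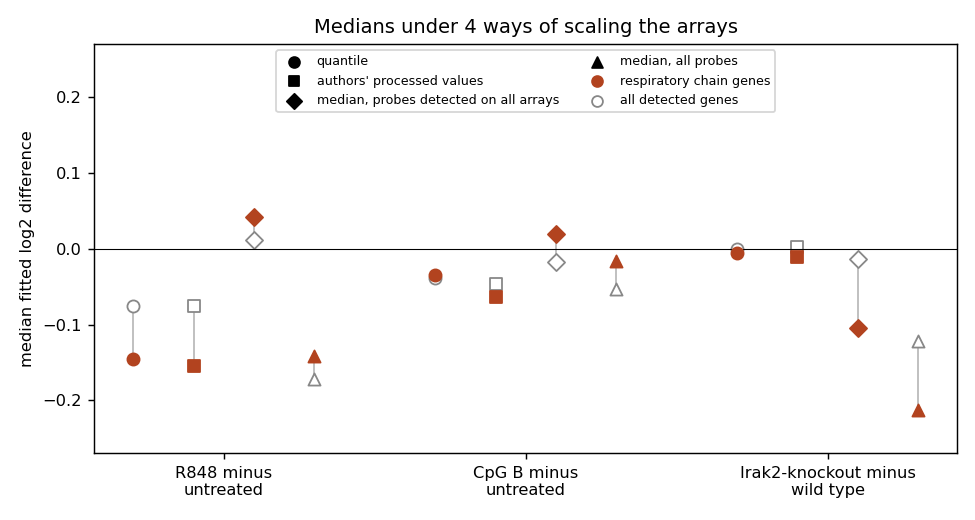
Median fitted log2 difference (vertical axis) of the 76 respiratory chain genes (filled) and of all detected genes (open) in 3 comparisons (horizontal axis) under 4 ways of scaling the arrays (symbol shape). The members' R848 median is -0.15 with quantile normalization and 0.04 with scaling to the median of probes detected on all arrays.

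The genotype question, whether respiratory chain RNA differed without Irak2, was read from the same model over the 3 conditions. No member was called, beside 1.76% of all detected genes that were higher and 1.64% that were lower in Irak2-knockout cells (3.4% in either direction). At an unadjusted limma p under 0.05 there were 9 members, 2 higher and 7 lower in knockout cells. Of all 7153 detected genes 643 were higher and 707 lower at that cut, a larger share. The sign was the same in all 3 conditions for 33 of the 76 members (43.4%), 12 higher and 21 lower, and for 43.3% of all detected genes. The members' median was -0.0060 with 42 below 0. It also depended on the scaling, with 65 below 0 and a median of -0.10 under median scaling and 70 below 0 and a median of -0.21 under scaling to all probes, so no direction is given for the members together.

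Ndufa12, an accessory subunit at the peripheral arm of complex I, had the smallest genotype p among the members. It read 11.68 with R848, 12.02 with CpG B and 12.06 untreated in Irak2-knockout cells, against 11.38, 11.52 and 11.45 in wild-type cells. All 3 knockout arrays lay above all 3 wild-type arrays, and the difference was 0.47 (SE 0.108, limma adjusted p = 0.0950). It passed the threshold when the moderation allowed for an intensity trend (adjusted p = 0.0374). Atp5e, the epsilon subunit in the central stalk of complex V, read 9.85 with R848, 9.93 with CpG B and 9.97 untreated in Irak2-knockout cells, against 9.41, 9.68 and 9.33 in wild-type cells. Its genotypes did not overlap either, with a difference of 0.44 (SE 0.116, adjusted p = 0.125).

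Among the members lower in knockout cells, Ndufb10, an accessory subunit of the membrane arm, read 9.37 with R848, 9.42 with CpG B and 9.82 untreated in Irak2-knockout cells, against 10.10, 9.84 and 10.10 in wild-type cells. The difference was -0.48 (SE 0.123, limma adjusted p = 0.121), and the highest knockout value fell just short of the lowest wild-type value. Atp5l, subunit g of complex V, read 11.91 with R848, 11.92 with CpG B and 12.10 untreated in Irak2-knockout cells, against 12.29, 12.32 and 12.40 in wild-type cells, with a difference of -0.36 (SE 0.0964, adjusted p = 0.133) and no overlap. Cox6a2, Ndufaf3, Ndufab1 (the mitochondrial acyl carrier protein), Ndufaf5 and Cox7a1 had differences of -0.33 to -0.27 with adjusted p of 0.180 to 0.233. The other detected probe of Ndufaf5 gave 0.0059. No member differed by 2-fold or more between the genotypes in any of the 3 conditions, against 2.2% of genes higher and 2.48% lower with R848, 1.65% higher and 1.08% lower with CpG B, and 1.2% higher and 0.951% lower untreated.

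Some genes listed as markers of other cell types moved with the genotype. Of 8 genes listed as dendritic cell markers 4 were detected, all of them MHC class II presentation genes (H2-Ab1, H2-Aa, H2-Eb1 and Cd74). All 4 were called higher in Irak2-knockout cells. Intensities summed over all 8 listed genes, the undetected ones included, were 14569 to 16889 in knockout and 4544 to 8396 in wild-type arrays. The rest of that list, Itgax, Flt3, Zbtb46 and Ccr7, was not detected, so these values do not show dendritic cells. Of 7 neutrophil markers 5 lay lower in knockout cells and the others did not, and 4 were called lower (S100a9, Camp, Ngp and Ltf). The sums over all 7 were 8417 to 12880 in knockout and 17260 to 19171 in wild-type arrays. Their part in the genotype values of the respiratory chain genes was not tested. In bulk RNA, fewer cells of a type and less RNA per cell cannot be told apart.

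The other nuclear genes that build or keep up the chain were read from lists chosen by function. Of 30 detected assembly factors outside the naming rule, 6 fell and 1 rose with R848, beside 17.3% and 12.1% of all detected genes, so the fallen share lies near that of all genes. Bcs1l, which inserts the Rieske protein into complex III, fell by 0.70 (SE 0.126, limma adjusted p = 0.0139), and it is also the single one that fell with CpG B (by 0.60, adjusted p = 0.0462), a call lost under both median scalings. Coa6 and Cox20, which serve copper delivery and maturation of the COX2 subunit of complex IV, fell by 0.72 (adjusted p = 0.0312) and 0.54 (adjusted p = 0.0241). Coa3, Ecsit (an assembly factor of complex I that also binds in Toll-like receptor signalling) and Sdhaf4 fell by 0.45, 0.54 and 0.45. Ttc19, which clears fragments of the Rieske protein from complex III, rose by 0.95 (SE 0.178, adjusted p = 0.0150). With scaling to the median of detected probes 4 had fallen, Coa3 and Sdhaf4 no longer passing, and 1 had risen.

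Bcs1l read 8.34 with R848, 8.50 with CpG B and 8.99 untreated in Irak2-knockout cells, and 8.14, 8.16 and 8.89 in wild-type cells. Ttc19 read 8.94 with R848, 8.79 with CpG B and 8.10 untreated in Irak2-knockout cells, and 9.21, 8.43 and 8.14 in wild-type cells. In both genes the R848 and untreated arrays did not overlap. Cytochrome c1 (Cyc1), a complex III member outside the naming rule, and the electron carrier cytochrome c (Cycs) had R848 differences of 0.03 and 0.11. None of the 5 genes of their list was called.

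Of the mitochondrial ribosome, which translates the mitochondrially encoded subunits, 69 genes were detected, 3 rose and 11 fell with R848, again beside 12.1% and 17.3% of all detected genes, with a list median of -0.18 that became -0.07 under median scaling, where 3 rose and 7 fell. Mrpl52 rose by 1.07 (SE 0.145, limma adjusted p = 0.00661) and Mrps35 fell by 0.76 (SE 0.156, adjusted p = 0.0197). None of 15 citric acid cycle genes and none of 16 mitochondrial import genes was called in the R848 fit. Of 9 regulators of mitochondrial biogenesis 2 rose and 2 fell. Esrra, a nuclear receptor that activates respiratory chain genes, rose by 0.70 (adjusted p = 0.0194), and Tfb1m, an enzyme of mitochondrial ribosomal RNA, fell by 0.59 (adjusted p = 0.0329), a call that the authors' processed values did not give (adjusted p = 0.118). Ppargc1b, a coactivator of ESRRA, was above background on the untreated arrays alone and was at least 1.24-fold lower with R848 and at least 1.48-fold lower with CpG B. It entered the tested genes through the untreated arrays, so no test of its fall is given although it is 1 of the 2 counted as fallen. Sod2, the superoxide dismutase of the mitochondrial matrix and a known Toll-like receptor target, rose by 2.34 with R848 (adjusted p = 0.00172) and by 1.79 with CpG B (adjusted p = 0.00582).

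**Figure D5:**
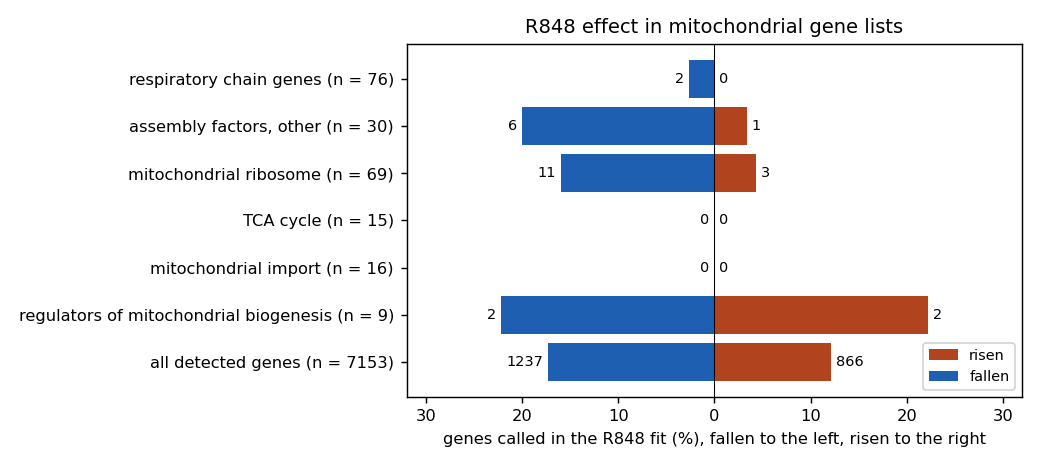
Share of detected genes called in the R848 fit (horizontal axis, percent; fallen to the left, risen to the right), with counts at the bar ends, for the respiratory chain genes, 5 other mitochondrial lists and all detected genes. Of 76 respiratory chain genes 2 fell and none rose; 6 of 30 other assembly factors fell and 1 rose, and 17.3% of all detected genes fell and 12.1% rose.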

How the data were processed

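Amplified RNA (1 round of in vitro transcription) was hybridised to mouseRef-8 v2 bead arrays, per the labels' protocols. The authors deposited a table of background-subtracted probe intensity values without normalization between arrays (33.4% to 34.4% of an array's values were negative). The submitters' processing notes name BeadStudio, whose version was not found in the sources used here. Each intensity has a detection p-value in the deposited table, per the file headers. A further deposited table holds processed intensities that are linear and quantile normalized, as its values show. In it, the untreated columns fit the mean of 2 arrays, and subtracting the known array from the doubled column gave another untreated array per genotype, which may be a technical repeat.

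The raw intensities were processed with limma 3.58.1 under R 4.3.3 (neqc, that is normexp background, offset 16, quantile normalization and log2). Probes were named through the platform annotation (23978 of 25697), and the probe with the highest mean stood for a gene. The limma fits were additive in genotype and agent over all 6 arrays, left 2 residual degrees of freedom and were tested on simulated data. The number of arrays limits the precision. A gene was called at an adjusted p under 0.05 over 7153 genes. Any member could be named. Values on every array were planned for called members, isoform pairs, c-subunit genes and Ndufa4, and up to 4 genes per direction were to be named from other lists. Outside this plan, array values are also given for uncalled members such as Ndufs3, Sdhd, Ndufa12 and Atp5e, and for some genes of other lists. All 6 fallen assembly factors outside the naming rule are named. The members, lists and markers were chosen with earlier results of these data known. Alternatives covered the background correction, the authors' processed table, 2 median scalings (the one over all probes chosen after seeing the data), the offset, the detection filter, the mean over probes, an intensity trend, each array left out, the other factor left out, and 8 arrays with the recovered ones. Promoter windows were searched for exact matches on both strands.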

Additional observations from a re-analysis of the deposited data

Results flagged for a closer look

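In these genes the stimulated array of 1 genotype lay above its untreated array and that of the other genotype lay below its own. Each difference was larger than 0.177, the root mean square difference of the members between untreated arrays of 1 genotype. Single members ranged from -0.64 to 0.32 in knockout and from -0.60 to 0.31 in wild-type cells between such arrays. The flagged genes are thus not shown to lie outside array noise. With 1 array per group the difference between genotypes was not tested. Cox7b, a small subunit of complex IV, differed by -0.55 in Irak2-knockout cells and 0.21 in wild-type cells with R848, and by -0.30 in knockout and 0.27 in wild-type cells with CpG B. Both pairs use the same untreated arrays, where knockout cells stood 0.50 above wild-type cells.

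Ndufb11, an accessory subunit of complex I, differed by 0.40 in Irak2-knockout and -0.47 in wild-type cells with R848, but it was detected on 2 arrays alone, knockout R848 and wild-type CpG B. With CpG B, Atp5d, the delta subunit of complex V, differed by 0.24 in knockout and -0.25 in wild-type cells. Cox6b1 differed by 0.18 in knockout and -0.20 in wild-type cells with CpG B, while its other detected probe gave -0.08 and -0.12.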

How the results depend on the processing

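No result changed sign together with a call. Over all detected genes the R848 fit called 2103, against 1280 without the genotype term. A fit without 1 array keeps 1 residual degree of freedom in place of 2. Few R848 calls were left without the untreated array of either genotype. There were fewer calls without the wild-type R848 array or a CpG B array, and more without the Irak2-knockout R848 array. The CpG B fit called 621 genes, 251 without the detection filter, 259 without the genotype term, 1 to 1290 without an array and 1316 with 8 arrays. The genotype fit called 243, 140 without the detection filter, 76 without the agent term, 9 to 282 without an array and 527 with 8 arrays. The R848 minus CpG B fit called 0, 0 to 522 without an array, 1 without background correction and 202 with 8 arrays. No paired analysis was possible because the labels carry no replicate numbers and each group has 1 array.

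The R848 count of 2 members became 1 without background correction, with either median scaling, without the detection filter, with genes detected on all arrays and without the genotype term, 5 with an intensity trend, 3 with 8 arrays, and 0 to 1 without an array. The CpG B count of 0 became 0 to 1 without an array and 1 with 8 arrays, and the genotype count of 0 became 1 with an intensity trend. The members' medians moved beyond the array spread as follows. Under scaling to probes detected on all arrays they were 0.042 (R848), 0.019 (CpG B), -0.10 (genotype) and 0.030 (R848 minus CpG B). Within genotypes that scaling gave -0.0020 in knockout and 0.092 in wild-type cells for R848, 0.053 in knockout cells for CpG B, and 0.10 in wild-type cells for R848 minus CpG B. Knockout minus wild type then gave -0.20 with R848, -0.013 with CpG B and -0.092 untreated. Scaling to all probes gave -0.21 for genotype, -0.12 for R848 in wild-type cells, -0.11 in knockout and 0.055 in wild-type cells for CpG B, and -0.20 for R848 minus CpG B in wild-type cells. Knockout minus wild type gave -0.18 with R848, -0.31 with CpG B and -0.13 untreated. The processed values gave -0.064 for CpG B. Without an array the medians ranged over -0.15 to -0.12 (R848), -0.070 to -0.026 (CpG B) and -0.11 to -0.072 (R848 minus CpG B). The cause of these shifts was not tested. Of the single genes named, 85 alternatives ended a call and 8 gave one.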

Other observations

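Between the genotypes, 1 of 16 mitochondrial import genes, 2 of 69 mitochondrial ribosome genes, 1 of 15 citric acid cycle genes and none of 30 other assembly factors were called, beside 3.4% of all detected genes. Tomm22, a receptor of the outer-membrane import pore, read 10.71 with R848, 10.81 with CpG B and 10.65 untreated in Irak2-knockout cells, against 8.76, 8.71 and 8.62 in wild-type cells, a difference of 2.03 (SE 0.0979, limma adjusted p = 0.000991). Mrps12, of the small mitochondrial ribosomal subunit, stood 1.35 higher (adjusted p = 0.00313) and Mrpl55, of the large one, fell by 0.99 (adjusted p = 0.00800) in knockout cells. Dlat, of the pyruvate dehydrogenase complex, fell by 0.67 (adjusted p = 0.0255). In each of these 4 genes all knockout arrays lay on the same side of all wild-type arrays. Each was measured by 1 probe, and leaving out an untreated array ended all 4 calls (adjusted p 0.0546 to 0.217).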
